A study of Rattus norvegicus with 6 samples.

Results

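Cyclins, cyclin-dependent kinases (CDKs), their inhibitors and the genes of the mitotic spindle, the kinetochore, the spindle checkpoint and cytokinesis were examined in rat bone marrow mesenchymal stem cells (BMSCs). The set was a fixed list of 57 gene symbols covering the cell cycle engine and the machinery of division, with Cdkn1a left outside it. Of the 57 symbols, 55 had a row among the 33508 genes of the deposited count table, and Ccnb2 and E2f1 were not analysed here.

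RNA-seq was performed on 3 libraries of BMSCs-OE-FNDC5, transduced with a lentivirus that overexpresses FNDC5, and on 3 libraries of the vector control BMSCs-OE-NC, transduced with a blank lentivirus. Both groups were primary cultures from 2-month-old Sprague-Dawley rats, passaged 3 times, transduced for 72 h and then exposed to hypoxia and serum deprivation (H/SD) for 24 h at 1% O2, 94% N2 and 5% CO2 in medium without glucose or serum. No library without H/SD was among the 6, so each value describes cells under that stress, and the promoter of the transgene was not given in the sources used here. The labels call the 3 libraries of a group biological replicates without saying whether they came from separate rats, cultures or transductions, so p-values measure the spread between these libraries only.

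Fndc5, the precursor of irisin, had 65589, 64672 and 64195 counts in BMSCs-OE-FNDC5, against 22, 17 and 25 counts in BMSCs-OE-NC. Total counts were 16640635 to 17229490 in BMSCs-OE-FNDC5 and 17430287 to 17965722 in BMSCs-OE-NC, and log2(CPM + 1) over genes correlated (Pearson) at 0.992 to 0.993 within groups and at 0.941 to 0.943 between them. Of 10 markers of mesenchymal stem cells, 9 were tested, of which 3 rose and 6 fell, where 36.9% of all tested genes rose and 38.8% fell. Thy1, Eng and Cd44 rose, and Nt5e, Itgb1, Pdgfrb, Pdgfra, Vcam1 and Cxcl12 fell. The 10 markers had a median gene length of 3990 bases, against 2262 bases over all tested genes. Longer genes tended to be lower in BMSCs-OE-FNDC5 over all genes, as described below. The summed level of these markers was 2350 to 2420 CPM (counts scaled to a common library size) in BMSCs-OE-FNDC5 and 4100 to 4140 CPM in BMSCs-OE-NC. Of the markers of other cells, Ptprc, C1qa, Adgre1, Cdh5, Epcam, Nrl and Crx were at 0 in all 6 libraries. Spn (haematopoietic), Krt8 (epithelial) and Klf1 (erythroid) were low but present. Their levels were 1.32 to 1.79, 2.66 to 4.17 and 2.11 to 2.91 CPM in BMSCs-OE-FNDC5. In BMSCs-OE-NC they were 1.28 to 1.52, 1.52 to 2.02 and 0.909 to 1.2 CPM. Among the tested markers of other cells, all but Spn rose. The 9 macrophage markers with a row summed to 198 to 206 CPM in BMSCs-OE-FNDC5 and 98.2 to 103 CPM in BMSCs-OE-NC, nearly all of it Cd14, and 5 of them were at 0. Egfl7 and Stmn2 made up most of the endothelial sum (90.6 to 94 CPM in BMSCs-OE-FNDC5, 51.8 to 55.3 CPM in BMSCs-OE-NC) and of the neuronal sum (42.2 to 44.7 CPM in BMSCs-OE-FNDC5, 16.1 to 19.9 CPM in BMSCs-OE-NC). The part of these shifts in the results below was not tested.

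As background, D-type cyclins with Cdk4 and Cdk6, and then E-type cyclins with Cdk2, phosphorylate the retinoblastoma protein Rb1, which frees E2F factors to switch on genes of DNA synthesis. Cyclin A and cyclin B with Cdk1 carry the cell through G2 into mitosis, where the spindle checkpoint holds Cdc20 and the anaphase-promoting complex until every chromosome is attached. The mitotic genes are transcribed late in the cycle under Foxm1, Mybl2 and the MuvB complex, often through a CCAAT box bound by NF-Y and a cell cycle genes homology region (CHR), while inhibitors such as p27 (Cdkn1b) hold CDKs in check in resting or deprived cells.

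Stretches of promoter are shown for 6 mitotic genes because they carry the letters of that late-cycle arrangement both in genes whose transcript rose and in genes whose transcript did not pass the test. Each stretch holds the 150 bases before the start of the gene in RefSeq (build GRCr8), 5′ to 3′ on the strand of the gene. Capitals mark TTTGAA (the CHR letters) and CCAAT on either strand, so that TTCAAA and ATTGG are the same letters read from the other strand, and TTTGAATTGG holds both motifs sharing 1 base.
Cdk1, chr20:19265143-19265292, plus strand: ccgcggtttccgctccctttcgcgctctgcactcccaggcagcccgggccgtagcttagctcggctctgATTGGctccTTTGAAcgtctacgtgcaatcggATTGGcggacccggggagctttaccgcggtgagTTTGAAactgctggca
Cdc20, chr5:137255800-137255949, minus strand: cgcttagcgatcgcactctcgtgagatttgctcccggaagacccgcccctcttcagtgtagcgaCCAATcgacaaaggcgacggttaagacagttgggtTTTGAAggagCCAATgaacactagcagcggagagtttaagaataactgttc
Pttg1, chr10:28406327-28406476, minus strand: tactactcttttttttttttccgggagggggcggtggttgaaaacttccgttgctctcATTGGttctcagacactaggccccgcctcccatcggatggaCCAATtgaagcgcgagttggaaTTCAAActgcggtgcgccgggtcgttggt
Cdca8, chr5:142483200-142483349, minus strand: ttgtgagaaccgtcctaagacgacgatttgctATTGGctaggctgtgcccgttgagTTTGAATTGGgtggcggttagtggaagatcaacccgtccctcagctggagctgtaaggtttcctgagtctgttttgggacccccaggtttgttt
Top2a, chr10:84473094-84473243, minus strand: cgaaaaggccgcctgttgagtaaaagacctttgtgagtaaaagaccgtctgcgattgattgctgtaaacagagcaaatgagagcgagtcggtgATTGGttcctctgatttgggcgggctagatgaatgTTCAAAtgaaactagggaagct
Mki67, chr1:199952594-199952743, minus strand: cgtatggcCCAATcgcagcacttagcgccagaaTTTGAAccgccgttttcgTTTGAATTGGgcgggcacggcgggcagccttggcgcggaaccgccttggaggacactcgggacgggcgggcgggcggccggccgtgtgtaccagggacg

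In Cdk1 the CHR letters began 72 and 16 bases before the start, each preceded by a CCAAT box at 81 and 49 bases. Cdc20 had them at 51 bases between CCAAT boxes at 86 and 41 bases, and Pttg1 at 29 bases after CCAAT boxes at 92 and 51 bases. In Mki67 they stood at 117 and 99 bases and in Top2a at 22 bases. A RefSeq window of 250 bases before to 50 bases after the start was matched by symbol for 46 of the 57 genes. TTTGAA was found on either strand in 27 of these 46 windows (58.7%), against 18.1% of the windows of 27457 rat genes. CCAAT was found in 32 (69.6%), against 37.7% of all windows, and CCAAT together with TTTGAA or its variant TTCGAA in 24 (52.2%), against 7.83%. Of the letters known from E2F sites, only the forms TTTCCCGC and TTTGGCGC were searched. They were found in 1 window each, those of Rb1 and Cdc25a, against 1.03% and 0.521% of all windows. Other forms of the E2F site were not searched, so their presence in the set was not tested. By outcome, TTTGAA was in 14 of 24 windows of genes that rose, in 11 of 15 windows of genes that did not pass and in 0 of 3 windows of genes that fell. The 27457 genes include genes outside the 12104 tested here, so these backgrounds were not matched to the set for expression. A match of letters is a description of the window and not a bound site.

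Most of the tested genes of the set were higher in BMSCs-OE-FNDC5. Of 51 genes that passed the filter on low counts, 32 rose, 4 fell and 15 did not pass edgeR's quasi-likelihood test at an adjusted p under 0.05, and the median of their log2 fold changes was 0.67, where a positive value means a higher level in BMSCs-OE-FNDC5. Change was widespread in these libraries: 36.9% of the 12104 genes tested rose and 38.8% fell, with a median of −0.04. The genes that rose made up 62.7% of the 51 and the genes that fell 7.84%. With a log2 fold change over 1 as well, 18 genes (35.3%) rose, against 9.84% of all genes, and 2 genes (3.92%) fell, against 17.5% of all genes. All 3 BMSCs-OE-FNDC5 libraries lay above all 3 BMSCs-OE-NC libraries in 32 of the 51 genes (62.7%, all genes 37.9%) and below them in 3 (5.88%, all genes 40.4%). In bulk RNA, fewer cells of a type and less RNA per cell cannot be told apart. The counts given below for each role cover 2 to 7 tested genes and stand beside 36.9% higher and 38.8% lower over all genes. No role was tested as a class.

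**Figure D1:**
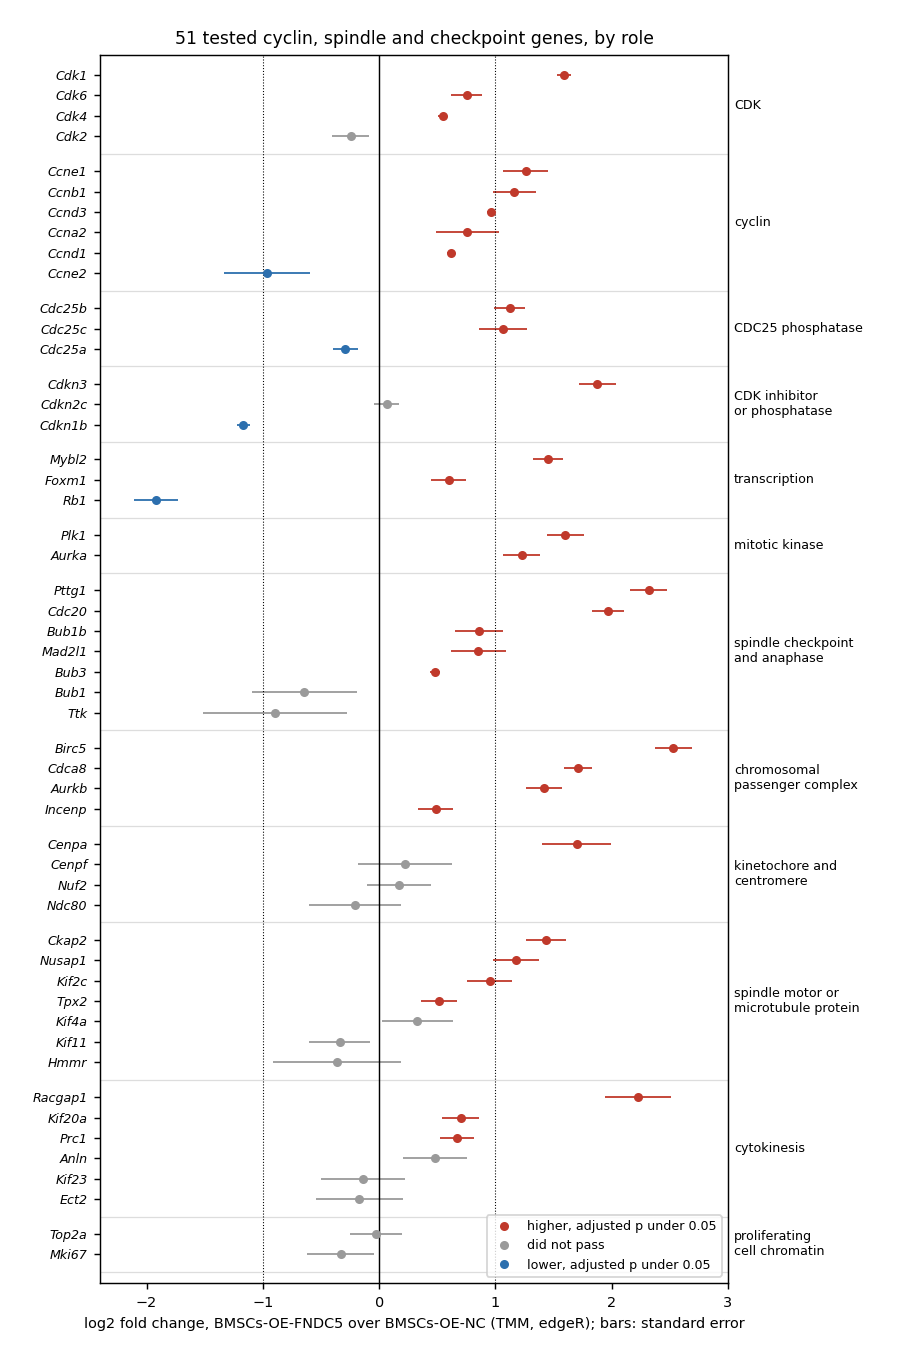
Log2 fold change (x axis, positive where BMSCs-OE-FNDC5 was higher than BMSCs-OE-NC) of each of the 51 tested genes, grouped by role, with bars of 1 standard error (SE) and dotted lines at −1 and 1. Red points rose, blue points fell and grey points did not pass at an adjusted p under 0.05; the 32 red points span the classes from CDKs to cytokinesis, and the 4 blue points are Ccne2, Cdc25a, Cdkn1b and Rb1.

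Among the CDKs, Cdk1, Cdk4 and Cdk6 rose and Cdk2 did not pass. Cdk1, the kinase that drives entry into mitosis, lies at chr20:20576377-20591549 in the tables' own coordinates, for which no rat build was given. It had 48.7, 45.6 and 45.4 CPM (libraries scaled by TMM, the trimmed mean of M-values method) in BMSCs-OE-FNDC5, against 15.1, 15.7 and 15.7 CPM in BMSCs-OE-NC. The groups were far apart and tight, at a log2 fold change of 1.59 (standard error, SE, 0.06, adjusted p = 1.3e-09). Cdk4, a partner of D-type cyclins, had 217, 207 and 223 CPM in BMSCs-OE-FNDC5, against 153, 146 and 145 CPM in BMSCs-OE-NC. Its rise was smaller than that of Cdk1, and the groups did not overlap (log2 fold change 0.55, adjusted p = 1.3e-07). The rise of Cdk4 was 0.18 with library size only (adjusted p = 9.3e-04) and 0.11 with an offset by gene length (adjusted p = 0.012). Its end overlaps Tspan31 on the other strand by 168 bases, and Tspan31 also rose (log2 fold change 0.80). Cdk6, the close relative of Cdk4, was far less abundant, at 8.53, 9.27 and 9.47 CPM in BMSCs-OE-FNDC5, against 5.21, 5.83 and 5.15 CPM in BMSCs-OE-NC. Each of its BMSCs-OE-FNDC5 libraries was above each BMSCs-OE-NC library (log2 fold change 0.75, adjusted p = 3.0e-04). Cdk2, the partner of cyclins E and A, had 11.3, 16.6 and 10.3 CPM in BMSCs-OE-FNDC5, against 15.2, 15.2 and 14.9 CPM in BMSCs-OE-NC. Replicate 2 of BMSCs-OE-FNDC5 was above all BMSCs-OE-NC libraries and the other 2 were below them, so the groups overlapped (log2 fold change −0.25, adjusted p = 0.18). Without that library Cdk2 passed as lower (log2 fold change −0.48, adjusted p = 0.0053).

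Of 6 tested cyclins 5 rose, and Ccne2 fell. Cyclin D1 (Ccnd1) and cyclin D3 (Ccnd3), which open the G1 phase in response to growth factors, were the most abundant genes of the set together with Cdk4. Ccnd3 had 469, 442 and 446 CPM in BMSCs-OE-FNDC5, against 232, 228 and 238 CPM in BMSCs-OE-NC. All 3 BMSCs-OE-FNDC5 libraries stood well above BMSCs-OE-NC, and the log2 fold change was 0.96 (SE 0.03, adjusted p = 3.0e-10). Ccnd1 had 449, 432 and 433 CPM in BMSCs-OE-FNDC5, against 279, 290 and 289 CPM in BMSCs-OE-NC. With TMM it rose by less than Ccnd3 (log2 fold change 0.61, SE 0.03, adjusted p = 5.4e-09). With an offset by gene length the order turned, at 1.11 for Ccnd1 and 0.93 for Ccnd3. The third D cyclin, Ccnd2, was near absent, with 0, 1 and 5 counts in BMSCs-OE-FNDC5 and 0, 2 and 0 counts in BMSCs-OE-NC, and was not tested. Cdk4, Ccnd1 and Ccnd3 together made up 69.3% to 71.1% of all counts of the set in BMSCs-OE-FNDC5 and 68% to 68.3% in BMSCs-OE-NC.

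The cyclins of S phase and mitosis were far less abundant. Ccnb1, cyclin B1, which activates Cdk1, had 4.63, 4.98 and 6.36 CPM in BMSCs-OE-FNDC5, against 2.41, 2.29 and 2.42 CPM in BMSCs-OE-NC. The groups did not overlap (log2 fold change 1.16, adjusted p = 1.5e-04). Ccna2, cyclin A2 of S phase and G2, had 1.72, 2.59 and 2.78 CPM in BMSCs-OE-FNDC5, against 1.67, 1.30 and 1.21 CPM in BMSCs-OE-NC. Its lowest BMSCs-OE-FNDC5 library was barely above the highest BMSCs-OE-NC library (log2 fold change 0.76, adjusted p = 0.025). Ccna2 did not pass when any of 4 single libraries was left out (replicate 2 or 3 of either group), with adjusted p of 0.067 to 0.088, or with DESeq2 (0.065). The gene lies entirely within the span of Exosc9 on the other strand, which fell (log2 fold change −0.73), and the strand setting of the counting was not given.

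The E-type cyclins, which activate Cdk2 at the start of S phase, moved in opposite directions. Ccne1 had 4.30, 4.02 and 5.30 CPM in BMSCs-OE-FNDC5, against 1.87, 1.94 and 1.87 CPM in BMSCs-OE-NC. All of its BMSCs-OE-FNDC5 libraries were far above the BMSCs-OE-NC libraries (log2 fold change 1.26, adjusted p = 1.1e-04). Ccne2 had 0.397, 0.614 and 0.795 CPM in BMSCs-OE-FNDC5, against 1.08, 1.15 and 1.31 CPM in BMSCs-OE-NC, from 6 to 12 and 22 to 26 counts. It fell without overlap of the groups (log2 fold change −0.96, SE 0.37, adjusted p = 0.034). With so few counts the call did not hold without any single library other than replicate 3 of BMSCs-OE-FNDC5 (adjusted p 0.054 to 0.11) or with DESeq2 (0.13). Its end overlaps Ints8 on the other strand by 521 bases, and Ints8 fell as well (log2 fold change −1.09).

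**Figure D2:**
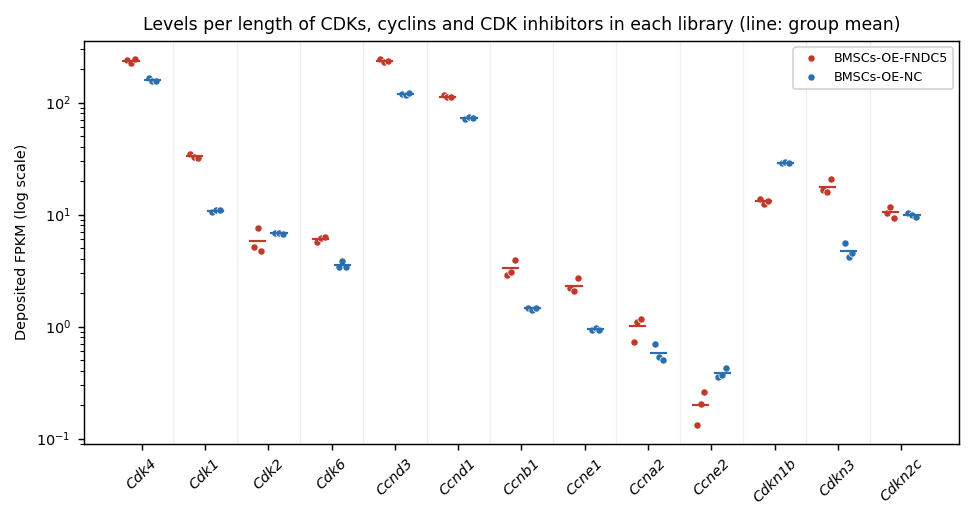
Deposited FPKM (y axis, log scale) of the tested CDKs, cyclins and CDK inhibitors in each of the 6 libraries, BMSCs-OE-FNDC5 in red left of BMSCs-OE-NC in blue, with a line at each group mean. Cdk4, Ccnd3 and Ccnd1 lie above 60 FPKM in every library, and Ccne2 lies below 0.5 FPKM in every library; Cdk1 and Cdkn1b change places between the groups.

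Levels of different genes were set beside each other on FPKM, which divides by gene length. Among the CDKs, cyclins and inhibitors the order in BMSCs-OE-FNDC5 began with Cdk4 (237 ± 9.12 FPKM) and Ccnd3 (237 ± 7.39 FPKM), which did not differ beyond their spread, followed by Ccnd1 (113 ± 2.41 FPKM) and Cdk1 (33.1 ± 1.29 FPKM, SD, n = 3). In BMSCs-OE-NC Cdk4 (159 ± 4.90 FPKM) stood above Ccnd3 (119.6 ± 2.22 FPKM), followed by Ccnd1 (72.6 ± 1.46 FPKM). The inhibitor Cdkn1b was at 13.2 ± 0.757 FPKM in BMSCs-OE-FNDC5, below Cdk1, and at 29.1 ± 0.424 FPKM in BMSCs-OE-NC, above Cdk1 at 10.8 ± 0.211 FPKM (SD, n = 3).

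Of the inhibitors, Cdkn1b fell, Cdkn3 rose and Cdkn2c did not pass. Cdkn1b encodes p27, which binds and blocks cyclin-CDK complexes (chr4:168689163-168693964). It had 24.3, 21.7 and 23.3 CPM in BMSCs-OE-FNDC5, against 51, 52.5 and 52.2 CPM in BMSCs-OE-NC. Every BMSCs-OE-FNDC5 library lay far below every BMSCs-OE-NC library (log2 fold change −1.17, SE 0.06, adjusted p = 8.1e-09). Cdkn3 is a phosphatase that acts on CDKs and is itself transcribed with the mitotic genes. It had 14.5, 13.9 and 18.2 CPM in BMSCs-OE-FNDC5, against 4.96, 3.69 and 4.04 CPM in BMSCs-OE-NC (log2 fold change 1.88, adjusted p = 8.2e-07). Cdkn2c, which encodes the Cdk4 and Cdk6 inhibitor p18, had 14.9, 16.7 and 13.4 CPM in BMSCs-OE-FNDC5, against 14.9, 14.3 and 13.8 CPM in BMSCs-OE-NC. Its groups overlapped (log2 fold change 0.06, adjusted p = 0.60), and its direction depended on the scaling, at −0.31 with library size only (adjusted p = 0.024). Cdkn2a had 1 count in the 6 libraries, in replicate 2 of BMSCs-OE-FNDC5, so a difference was not detectable at this depth.

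The CDC25 phosphatases, which remove inhibitory phosphates from CDKs, differed within the family. Cdc25b had 17.7, 18.5 and 17.2 CPM in BMSCs-OE-FNDC5, against 8.60, 6.58 and 9.34 CPM in BMSCs-OE-NC (log2 fold change 1.12, adjusted p = 1.5e-05). Cdc25c had 4.89, 4.50 and 3.97 CPM in BMSCs-OE-FNDC5, against 1.72, 2.54 and 2.12 CPM in BMSCs-OE-NC (log2 fold change 1.06, adjusted p = 6.3e-04). Both act at entry into mitosis, and in neither did the groups overlap. Cdc25a, which also acts at the start of S phase, had 14.2, 15.8 and 17.5 CPM in BMSCs-OE-FNDC5, against 17.3, 21.2 and 19.5 CPM in BMSCs-OE-NC. Replicate 3 of BMSCs-OE-FNDC5 was above replicate 1 of BMSCs-OE-NC, and the small fall (log2 fold change −0.29, adjusted p = 0.033) did not pass with RLE scaling (adjusted p = 0.052), with DESeq2 (0.076) or without any of 4 single libraries (replicate 1 or 2 of BMSCs-OE-FNDC5, replicate 2 or 3 of BMSCs-OE-NC, 0.070 to 0.12).

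Among the transcriptional regulators, Rb1 showed the largest fall of the 51 tested genes. Rb1, the retinoblastoma tumour suppressor that restrains E2F factors (chr15:55083140-55209342), had 1.39, 2.18 and 1.92 CPM in BMSCs-OE-FNDC5, against 7.17, 6.83 and 6.77 CPM in BMSCs-OE-NC. From 21 to 32 and 134 to 146 counts the groups were widely apart (log2 fold change −1.92, SE 0.19, adjusted p = 3.1e-06). Lpar6 lies within its span on the other strand, with 17 counts over all libraries. Mybl2, the B-MYB factor of mitotic genes, had 22.2, 22.3 and 24.4 CPM in BMSCs-OE-FNDC5, against 7.32, 7.77 and 10.1 CPM in BMSCs-OE-NC (log2 fold change 1.45, adjusted p = 1.1e-06). Foxm1, a forkhead factor of the same gene programme, rose by less, with 5.82, 6.27 and 5.50 CPM in BMSCs-OE-FNDC5, against 4.13, 3.74 and 3.74 CPM in BMSCs-OE-NC (log2 fold change 0.60, adjusted p = 0.0038).

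**Figure D3:**
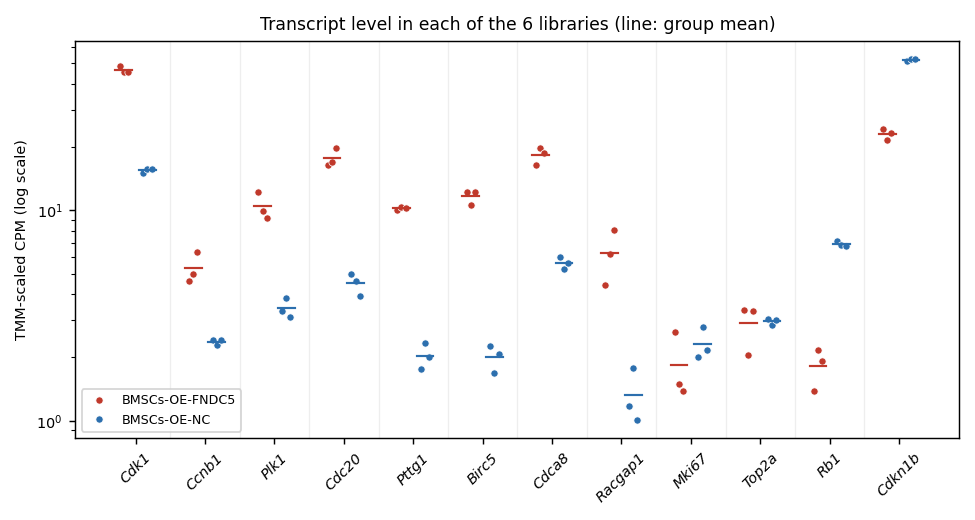
TMM-scaled CPM (y axis, log scale) of 12 genes in each of the 6 libraries, BMSCs-OE-FNDC5 in red left of BMSCs-OE-NC in blue, with a line at each group mean. The groups are apart in Cdk1, Ccnb1, Plk1, Cdc20, Pttg1, Birc5, Cdca8 and Racgap1 (higher in BMSCs-OE-FNDC5) and in Rb1 and Cdkn1b (lower), and overlap in Mki67 and Top2a.

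The mitotic kinases both rose. Plk1, polo-like kinase 1, which acts from centrosome maturation to cytokinesis, had 12.2, 9.96 and 9.21 CPM in BMSCs-OE-FNDC5, against 3.34, 3.84 and 3.13 CPM in BMSCs-OE-NC (log2 fold change 1.60, adjusted p = 3.4e-06). Aurka, the aurora kinase of the spindle poles, had 6.88, 6.41 and 7.35 CPM in BMSCs-OE-FNDC5, against 2.95, 2.59 and 3.28 CPM in BMSCs-OE-NC (log2 fold change 1.22, adjusted p = 3.5e-05). In each the lowest BMSCs-OE-FNDC5 library was well above the highest BMSCs-OE-NC library.

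Of the 7 checkpoint and anaphase genes, 5 rose and 2 did not pass. Pttg1, securin, which holds separase inactive until anaphase, had 9.99, 10.4 and 10.3 CPM in BMSCs-OE-FNDC5, against 1.77, 2.34 and 2.02 CPM in BMSCs-OE-NC. It was about 5 times as abundant in BMSCs-OE-FNDC5 (fold change 4.99, log2 2.32, SE 0.16, adjusted p = 1.3e-07). Cdc20, the activator of the anaphase-promoting complex that the checkpoint restrains, had 16.5, 17 and 19.7 CPM in BMSCs-OE-FNDC5, against 5.01, 4.63 and 3.94 CPM in BMSCs-OE-NC (log2 fold change 1.97, adjusted p = 1.4e-07). The promoter letters of both genes are among those printed above. Bub3, a checkpoint scaffold that is also expressed outside mitosis, had 96.8, 92.1 and 100 CPM in BMSCs-OE-FNDC5, against 69, 70.7 and 67.9 CPM in BMSCs-OE-NC (log2 fold change 0.48, adjusted p = 1.2e-06). Bub1b (log2 fold change 0.86, adjusted p = 0.0027) and Mad2l1 (0.85, adjusted p = 0.0066), subunits of the mitotic checkpoint complex, rose as well. The kinases Bub1 and Ttk did not pass, at log2 fold changes of −0.64 and −0.90 with SEs of 0.45 and 0.62. They had 4 to 15 counts (Bub1) and 2 to 10 counts (Ttk) in BMSCs-OE-FNDC5, against 17 to 26 and 7 to 24 counts in BMSCs-OE-NC.

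All 4 subunits of the chromosomal passenger complex, which corrects faulty attachments and then drives cytokinesis, rose. Birc5, survivin, which is also known as an inhibitor of apoptosis (chr10:106856097-106864413), had 12.2, 10.6 and 12.2 CPM in BMSCs-OE-FNDC5, against 2.26, 1.69 and 2.07 CPM in BMSCs-OE-NC. With TMM it showed the largest rise of the 51 tested genes (fold change 5.78, log2 2.53, SE 0.16, adjusted p = 7.1e-08). With an offset by gene length Birc5 was at a log2 fold change of 2.08, below Racgap1 at 2.54. Cdca8, borealin, had 16.5, 19.8 and 18.8 CPM in BMSCs-OE-FNDC5, against 5.99, 5.28 and 5.61 CPM in BMSCs-OE-NC (log2 fold change 1.71, adjusted p = 1.6e-07). Aurkb, the kinase of the complex, had 10.9, 13.5 and 11 CPM in BMSCs-OE-FNDC5, against 5.06, 4.44 and 3.74 CPM in BMSCs-OE-NC (log2 fold change 1.42, adjusted p = 7.6e-06). None of these overlapped between groups. Incenp, the scaffold, rose least (log2 fold change 0.49, adjusted p = 0.012) and did not pass without replicate 3 of BMSCs-OE-NC (0.39, adjusted p = 0.058).

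At the kinetochore, 1 of 4 tested genes rose. Cenpa, the histone H3 variant that marks centromeres, had 2.12, 2.39 and 2.98 CPM in BMSCs-OE-FNDC5, against 0.884, 0.548 and 0.859 CPM in BMSCs-OE-NC (log2 fold change 1.70, adjusted p = 3.0e-04). Nuf2 and Ndc80 form the complex that grips microtubules, and neither passed. Nuf2 had 1.98, 1.98 and 1.85 CPM in BMSCs-OE-FNDC5, against 2.36, 1.35 and 1.46 CPM in BMSCs-OE-NC, where replicate 1 was the highest of all 6 (log2 fold change 0.17, adjusted p = 0.59). Cenpf, a large outer kinetochore protein, had 0.728, 0.682 and 0.861 CPM in BMSCs-OE-FNDC5, against 0.639, 0.498 and 0.808 CPM in BMSCs-OE-NC (log2 fold change 0.22, adjusted p = 0.62). Ndc80 was at a log2 fold change of −0.21 (SE 0.40). The kinesin Cenpe had 2 to 5 counts in BMSCs-OE-FNDC5 and 3 to 10 counts in BMSCs-OE-NC and was not tested.

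Of 7 tested spindle motors and microtubule proteins, 4 rose and none fell. Ckap2, a microtubule-stabilising protein, had 7.47, 6.96 and 5.96 CPM in BMSCs-OE-FNDC5, against 2.55, 2.74 and 2.22 CPM in BMSCs-OE-NC (log2 fold change 1.44, adjusted p = 1.5e-05). Nusap1, which bundles microtubules near chromosomes, had 4.70, 4.09 and 5.50 CPM in BMSCs-OE-FNDC5, against 2.41, 1.84 and 2.07 CPM in BMSCs-OE-NC (log2 fold change 1.17, adjusted p = 2.4e-04). In both the groups stood apart. Kif2c, the microtubule-depolymerising kinesin of centromeres, had 3.90, 4.64 and 5.43 CPM in BMSCs-OE-FNDC5, against 2.46, 2.64 and 2.12 CPM in BMSCs-OE-NC (log2 fold change 0.95, adjusted p = 0.0010). Tpx2, which activates Aurka on the spindle, rose by a log2 fold change of 0.51 (adjusted p = 0.0098). The bipolar-spindle kinesin Kif11, the chromokinesin Kif4a and the hyaluronan receptor and spindle protein Hmmr did not pass, at log2 fold changes of −0.34, 0.33 and −0.36. Kif20b, a kinesin of late mitosis, had 1 to 8 counts in BMSCs-OE-FNDC5 and 1 to 7 counts in BMSCs-OE-NC and was not tested.

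Among 6 cytokinesis genes, 3 rose and 3 did not pass. Racgap1, the GTPase-activating subunit of centralspindlin, had 4.43, 6.21 and 8.08 CPM in BMSCs-OE-FNDC5, against 1.18, 1.79 and 1.01 CPM in BMSCs-OE-NC. Its BMSCs-OE-FNDC5 libraries spread widely but all lay above BMSCs-OE-NC (fold change 4.68, log2 2.23, SE 0.28, adjusted p = 2.3e-05). Prc1, which bundles the central spindle, had 7.80, 7.37 and 8.55 CPM in BMSCs-OE-FNDC5, against 5.65, 4.58 and 4.65 CPM in BMSCs-OE-NC (log2 fold change 0.67, adjusted p = 0.0016). Kif20a, the kinesin that brings passenger proteins to the midzone, had 9.33, 9.62 and 11.1 CPM in BMSCs-OE-FNDC5, against 5.01, 6.23 and 7.22 CPM in BMSCs-OE-NC (log2 fold change 0.70, adjusted p = 0.0018). Kif20a and Cdc25c lie close together on chromosome 18 of the tables, and Kif20a overlaps Cdc23 on the other strand by 1910 bases, where Cdc23 was at a log2 fold change of −0.16. Kif23, the motor partner of Racgap1, was at a log2 fold change of −0.14 (SE 0.36), so the 2 subunits of centralspindlin were measured at different changes, and their difference was not tested. The actin-binding protein Anln (0.48, adjusted p = 0.13) and the RhoA activator Ect2 (−0.17, adjusted p = 0.69) did not pass either. Without replicate 1 of BMSCs-OE-FNDC5, Anln passed as higher (0.70, adjusted p = 0.029).

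The usual transcript markers of proliferating cells did not pass with TMM, and their outcome depended on the processing. Mki67, which coats mitotic chromosomes, had 2.65, 1.5 and 1.39 CPM in BMSCs-OE-FNDC5, against 2.01, 2.79 and 2.17 CPM in BMSCs-OE-NC. Replicate 1 of BMSCs-OE-FNDC5 lay between the BMSCs-OE-NC libraries and the other 2 lay below them (log2 fold change −0.33, SE 0.29, adjusted p = 0.31), and without it Mki67 passed as lower (−0.68, adjusted p = 0.047). Top2a, the topoisomerase of chromosome condensation, had 3.37, 2.05 and 3.31 CPM in BMSCs-OE-FNDC5, against 3.05, 2.84 and 3.03 CPM in BMSCs-OE-NC (log2 fold change −0.03, SE 0.22, adjusted p = 0.91). Replicate 2 of BMSCs-OE-FNDC5 was the lowest and the other 2 were the highest of the 6. With an offset by gene length both genes passed as higher, Mki67 at 0.74 (adjusted p = 0.039) and Top2a at 0.70 (adjusted p = 0.015). With library size only Mki67 passed as lower (−0.70, adjusted p = 0.044) and Top2a did not pass (−0.40, adjusted p = 0.12).

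Summed over the 55 genes with a row, the set stood at 1600, 1550 and 1590 CPM in BMSCs-OE-FNDC5, against 977, 976 and 983 CPM in BMSCs-OE-NC. For 33 genes from the mitotic kinases to Mki67, without Bub3, which was left out after its level was seen, the sums were 166, 173 and 182 CPM in BMSCs-OE-FNDC5, against 83.9, 78.7 and 80.1 CPM in BMSCs-OE-NC. Both sums, scaled by TMM, were higher in every BMSCs-OE-FNDC5 library. Unscaled, the 55 genes summed to 24144, 22749 and 24010 counts in BMSCs-OE-FNDC5, against 19886, 19584 and 19465 counts in BMSCs-OE-NC, a narrower gap. Most of that sum was Cdk4, Ccnd1 and Ccnd3, whose log2 fold changes were 0.18, 0.24 and 0.59 with library size only. The 15 tested genes that did not pass had log2 fold changes of −0.90 to 0.48 with SEs of 0.11 to 0.62, and 13 of them had fewer than 100 counts in every library.

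Gene length moved with the fold change, in the set and across all genes. Over the 51 tested genes, Spearman's rho between gene length and log2 fold change was −0.42, and over all 12104 genes it was −0.44 (correlations across genes, which are not independent replicates). The 17 shortest genes of the set (873 to 2237 bases) had a median log2 fold change of 1.16. The 4671 tested genes of that length range had a median of 0.25. In the 17 genes of 2283 to 3382 bases the median was 0.70 (−0.18 over all 2698 tested genes of that range). In the 17 longest genes (3419 to 10069 bases) the median was 0.33 (−0.59 over all 3114 tested genes of that range). The median of the set was thus above that of all genes in each of the 3 ranges. Mki67 (9880 bases), Top2a (5589 bases) and Cenpf (10069 bases) were among the longest genes.

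With each library's trend of counts over gene length taken as an offset, 37 genes of the set rose and 2 fell, beside 40.7% of all tested genes higher and 30.8% lower in that fit, and the medians of the 3 ranges were 1.01, 0.99 and 0.93. The 37 held all 32 genes that rose before, with Cenpf (log2 fold change 1.29, adjusted p = 0.014), Kif4a (0.95, adjusted p = 0.016), Anln (0.90, adjusted p = 0.012), Top2a (0.70, adjusted p = 0.015) and Mki67 (0.74, adjusted p = 0.039) added. Cdkn1b (−1.26, adjusted p = 4.4e-09) and Rb1 (−1.56, adjusted p = 1.9e-05) fell with the offset too, while Ccne2 (−0.63, adjusted p = 0.15) and Cdc25a (0.12, adjusted p = 0.32) did not pass. The part of RNA quality or library preparation in this length trend was not tested.

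**Figure D4:**
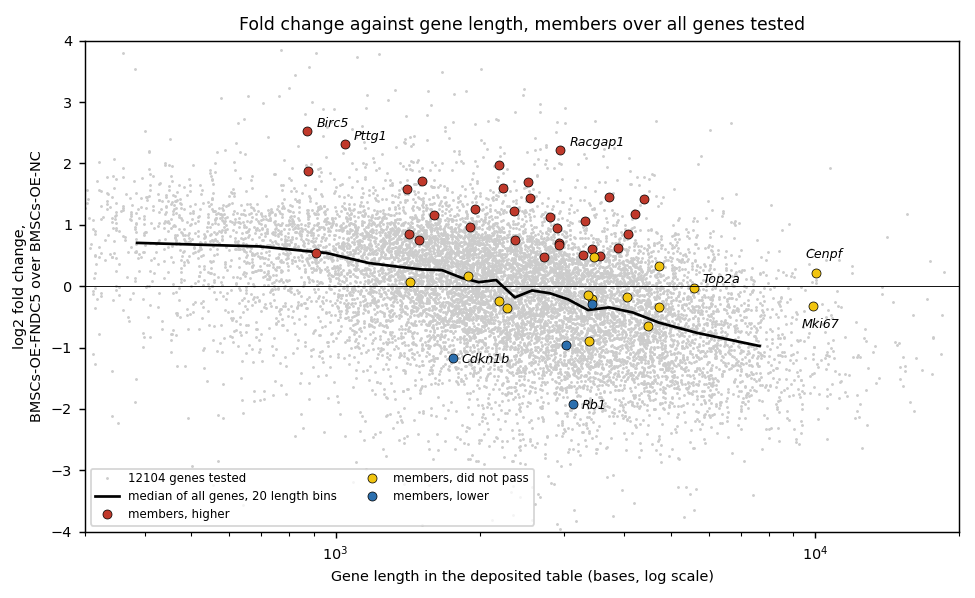
Log2 fold change (y axis, positive where BMSCs-OE-FNDC5 was higher than BMSCs-OE-NC) against gene length in bases (x axis, log scale) for the 12104 genes tested (grey, 224 outside the plotted range) with their median in 20 length bins (black line), and for the 51 genes of the set (red rose, yellow did not pass, blue fell). The black line declines with length, most genes of the set lie above it, and the longest, Mki67, Cenpf and Top2a, are near 0.

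Scaling also set how many genes counted as changed. TMM factors were 0.877 to 0.882 in BMSCs-OE-FNDC5 and 1.13 to 1.14 in BMSCs-OE-NC, and with library size only the median of all genes was −0.41, a shift of −0.37. In that fit 25 genes of the set rose and 8 fell, beside 22% of all tested genes higher and 55.4% lower, against 32 and 4 genes of the set with TMM. The median of the set was 0.30, which lay 0.71 above that of all genes, as it did with TMM. Ccna2, Foxm1, Mad2l1, Incenp, Tpx2, Kif20a and Prc1 no longer passed, and Cdk2, Cdkn2c, Kif11 and Mki67 passed as lower. The 18 genes that rose past a log2 fold change of 1 kept their direction and an adjusted p under 0.05 in all 17 alternatives tried, as did 25 of the 32 genes that rose and Cdkn1b and Rb1 among the 4 that fell.

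**Figure D5:**
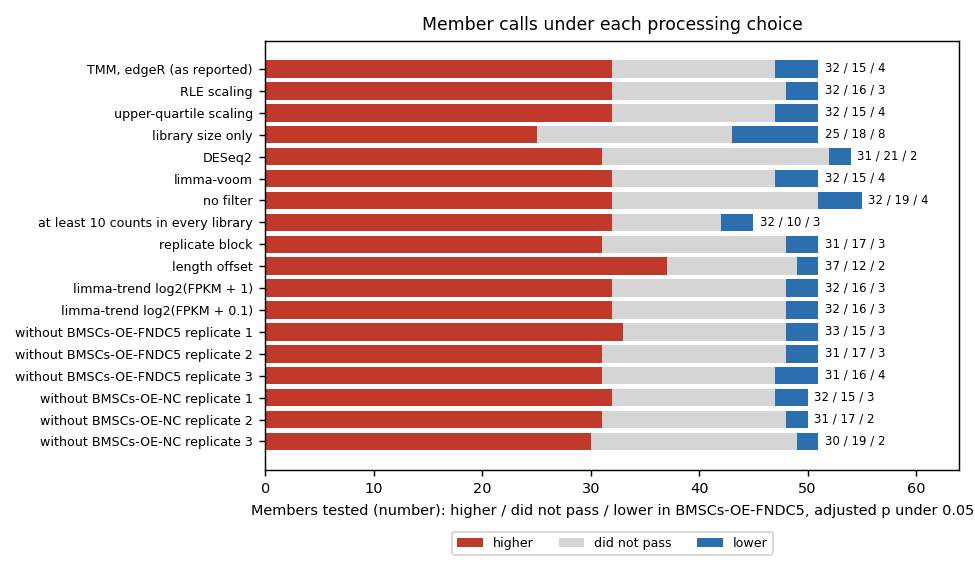
Number of genes of the set (x axis) that rose (red), did not pass (grey) and fell (blue) in BMSCs-OE-FNDC5 under each processing choice (y axis), at an adjusted p under 0.05. The number that rose lies between 30 and 33 in all choices but library size only (25) and length offset (37).

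Other cell cycle genes, chosen from textbook roles in 6 lists with earlier results of these data known, held genes of both directions. Of 135 tested genes (154 listed), 60 rose (44.4%), 42 fell (31.1%) and 33 did not pass, with a median of 0.09, beside 36.9% higher and 38.8% lower over all genes. Of 31 tested kinetochore and checkpoint genes outside the set, 20 rose and 2 fell (median 0.71). Spc24, a subunit of the Ndc80 complex, had 56, 57.2 and 56.1 CPM in BMSCs-OE-FNDC5, against 8.15, 7.72 and 8.33 CPM in BMSCs-OE-NC (log2 fold change 2.80, adjusted p = 1.9e-11). Cenpm (2.34) and Pmf1 (1.31) rose as well, and Mis12 (−0.72) and Cenpc (−1.50) fell. With library size only, where 22% of all tested genes were higher and 55.4% lower, 12 of the 31 rose and 8 fell.

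Of 35 further mitotic kinases, motors and regulators, 18 rose and 7 fell (median 0.53). The chromokinesin Kif22 (log2 fold change 1.72), the minus-end kinesin Kifc1 (2.01) and the microtubule destabiliser Stmn1 (1.10) rose, and the kinases Nek6 (−0.92) and Nek7 (−1.50) and the dynein regulator Ndel1 (−0.36) fell. The 19 genes of the anaphase-promoting complex and its ubiquitin enzymes were split, with 9 higher and 6 lower (median 0.09), among them Ube2s (0.85), Anapc11 (1.00) and Anapc2 (0.50), which rose, and Anapc4 (−1.20), Cdc16 (−0.68) and Cdc27 (−1.28), which fell. With library size only that split was 7 higher and 10 lower, again beside 22% and 55.4% of all tested genes.

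Of 18 cohesin, condensin and separase genes, 5 rose and 10 fell (median −0.68). Espl1, separase, the protease that securin inhibits, rose (1.51), as did the condensin subunits Ncaph (1.01) and Ncaph2 (0.80). The cohesin subunits Rad21 (−0.69), Stag1 (−1.61) and Stag2 (−1.53) fell. These are long genes (median 4338.5 bases), and with the length offset the median of the list was −0.09, with 5 higher and 8 lower, beside 40.7% and 30.8% of all tested genes.

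Of 19 E2F, DP, pocket and MuvB genes, 3 rose and 12 fell (median −0.58). The MuvB subunit Lin37 (1.30), E2f8 (1.30) and E2f2 (0.38) rose, and E2f6 (−0.90), the DP subunit Tfdp1 (−0.58) and the pocket protein Rbl2 (−1.05), a relative of Rb1, fell. Of 13 other CDK regulators 5 rose and 5 fell (median 0.06). The inhibitor Cdkn1a, p21, had 662, 635 and 631 CPM in BMSCs-OE-FNDC5, against 97.6, 106 and 106 CPM in BMSCs-OE-NC (log2 fold change 2.64, adjusted p = 8.4e-13), so it moved opposite to Cdkn1b. The CDK subunit Cks2 (1.01) and the Cdk1-inhibiting kinase Pkmyt1 (1.39) rose. Wee1 (−0.63), which also inhibits Cdk1, and Cdk7 (−0.48) and Ccnh (−0.63) of the CDK-activating kinase fell. With library size only (22% of all tested genes higher and 55.4% lower), the counts of higher and lower genes were 12 and 10 for the further mitotic kinases, motors and regulators, 4 and 12 for cohesin, condensin and separase, 1 and 16 for the E2F group and 3 and 7 for the other CDK regulators.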

How the data were processed

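The deposited gene counts were whole numbers per gene with a different total in each library, and in the deposited FPKM table each value was that count over gene length and over a single constant per library. Per the labels, DESeq2, HTSeq 0.6.0, HISAT2 2.1.0, Bowtie2 2.2.3, TopHat2 and CASAVA stand in the submitters' processing notes, whose build (mm10) is of the mouse, and the extraction text speaks of retinas, but the identifiers in the tables are those of the rat. The rat build and the strand setting were not given in the sources used here. The kit was Illumina TruSeq RNA.

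The test used edgeR 4.0.16 in R 4.3.3 (filterByExpr at minimum count 10 and minimum total count 15, TMM, quasi-likelihood test of 3 against 3 libraries, Benjamini-Hochberg over all 12104 genes tested, threshold 0.05, fold threshold 1 on the log2 scale). The procedure was also run on simulated counts with few changed genes and no length trend. These data differ in both, so that run cannot say how accurate the calls here are. For single genes an exact permutation test of 3 against 3 cannot go below p = 0.1 and was not used. The members and lists were chosen with earlier results of these data known. All 57 members were named. Values in every library were given for the tested CDKs, cyclins and inhibitors, for up to 3 genes of each other class with the smallest p, and for genes passing opposite to most of their class, and from each list of other genes up to 3 with the smallest p in each direction were named. Alternatives were RLE, upper-quartile and library-size scaling, DESeq2 1.42.0, limma-voom and limma-trend (limma 3.58.1) on log2(FPKM + 1) and log2(FPKM + 0.1), no filter, at least 10 counts in every library, a replicate block, an offset by gene length (lowess, span 0.3) and each library left out. Without 1 library, the groups of 2 and 3 shared 1 estimate of spread. Promoter windows came from RefSeq (GRCr8), taking the first window listed for a gene. Python 3.11.15 with matplotlib 3.10.9 drew the figures.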

Additional observations from a re-analysis of the deposited data

How the results depend on the processing

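Under the 17 alternatives (11 settings and 6 omitted libraries) the number of genes of the set that rose was 25 to 37, and 30 to 33 with a library left out. Over all genes in the same fits, 22% to 40.7% were higher and 28.6% to 55.4% lower. The number that fell was 8 with library size only, 2 with DESeq2 and 2 with the length offset. It was 2 to 4 with a library left out, and 2 without replicate 2 or replicate 3 of BMSCs-OE-NC. With DESeq2, 29.8% of all genes were higher and 29.2% lower. With a library left out, 34.3% to 35.2% were higher and 36.3% to 36.9% lower. With log2(FPKM + 1), 9 genes rose past the fold threshold, where the pseudocount shrinks the change of low genes. With a library left out, 17 to 19 rose and 2 to 3 fell past it. The shares of all genes past the fold threshold in these fits are not given here. The median log2 fold change was 0.57 with upper-quartile scaling, 0.30 with library size only, 0.95 with the length offset, 0.49 with log2(FPKM + 1) and 0.62 to 0.70 with a library left out, and upper-quartile scaling moved the median of all genes by −0.10.

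Within the set, directions turned for 1 called gene, Cdc25a (0.12 with the length offset), and otherwise for genes that had not passed. With the length offset, Cdkn2c was at −0.15, Ndc80 at 0.21, Kif11 at 0.28, Kif23 at 0.26, Ect2 at 0.35, Top2a at 0.70 and Mki67 at 0.74. With library size only, Cdkn2c was at −0.31, Cenpf at −0.14, Nuf2 at −0.20 and Kif4a at −0.039. Cdkn2c was at −0.041 with upper-quartile scaling and Top2a at 0.00080 with RLE. With a library left out, Cdkn2c ranged over −0.016 to 0.14, Ndc80 over −0.48 to 0.090, Hmmr over −0.64 to 0.00029, Kif23 over −0.43 to 0.15, Ect2 over −0.40 to 0.044 and Top2a over −0.15 to 0.17. The cause of these changes was not tested.

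Deviations of libraries with the same replicate number correlated at 0.02, −0.03 and −0.00, which cannot show whether the samples were paired. With the replicate block, 31 genes rose and 3 fell, beside 36.3% of all tested genes higher and 38.2% lower. In that fit Ccna2 (0.75, adjusted p = 0.050) and Ccne2 (−0.98, adjusted p = 0.051, edgeR) no longer passed. Of the named genes outside the set, E2f2 (0.0098, adjusted p = 0.95) and E2f8 (0.93, adjusted p = 0.070) did not pass with library size only, and Wee1 (−0.24, adjusted p = 0.23) did not pass with the length offset. E2f2 did not pass with upper-quartile scaling (adjusted p = 0.083) or without replicate 1 or 3 of BMSCs-OE-FNDC5 or replicate 1 or 2 of BMSCs-OE-NC (adjusted p 0.064 to 0.080), nor E2f8 with DESeq2 (0.065) or without replicate 2 of BMSCs-OE-NC (0.058). Outside the set, directions of called genes turned for Anapc5, Anapc7, Zwint, Mad1l1 and Ncapd2 with library size only and for Anapc1, Ncapd3, Arpp19, Ckap5 and Numa1 with the length offset. Cdc23 did not pass with DESeq2 (−0.13, adjusted p = 0.16), with the length offset (−0.070, adjusted p = 0.25) or without replicate 1 of BMSCs-OE-FNDC5 or replicate 1 or 2 of BMSCs-OE-NC (adjusted p 0.057 to 0.080). Of the genes of the set that did not pass, 13 had fewer than 100 counts in every library, and 4 genes were left untested for low counts.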
